A study of Arabidopsis thaliana with 9 samples.

Results

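RNA was compared between whole Arabidopsis thaliana seedlings that lack normal MYB30 function (the myb30 mutant) and seedlings that overexpress MYB30 (MYB30-OE). The genes described are all rows of the deposited myb30 and MYB30-OE comparison whose average level lay above the column minimum, which is 25647 of 33977 gene rows. The remaining 8330 rows sat at an average log2 CPM (CPM is the reads of a gene scaled to the size of its library) of -4.106, the value of a gene without reads, and the lowest row that was kept lay at -3.991, a level shared by 358 genes.

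Each genotype was represented by 3 libraries of seedlings in the Col ecotype, 4 days old, grown on MS plates in continuous white light, and 3 further libraries came from wild-type Col seedlings grown alike. The labels name neither the myb30 allele, nor the promoter that drives MYB30 in the overexpressor, nor how many lines stand behind each genotype. The myb30 and MYB30-OE libraries span the widest range of MYB30 level in the series, and the comparison between them needs no Col library. Col levels are given beside it for orientation.

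MYB30 is an R2R3-type MYB transcription factor. It is known as a positive regulator of pathogen-induced cell death, as an activator of genes for very-long-chain fatty acids, and as a partner of the brassinosteroid factor BES1. It has also been tied to light signalling through phytochrome-interacting factors.

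The authors deposited fold changes, average levels and p-values but no value of a single library, so no spread within a genotype can be printed. Errors enter only through their p-values, to which a Benjamini-Hochberg adjustment was applied. A gene is said to pass at an adjusted p under 0.05. All fold changes and p-values below come from the authors' deposited table for these lines. Nothing in the labels tells whether the replicate libraries were grown apart, and the spread that the p-values measure may therefore be technical. The average library implied by the tables held 36516310 counted reads in myb30, 33905540 in Col and 32367682 in MYB30-OE, and 1 read over the 3 libraries of a genotype corresponds to about 0.00968 CPM. Levels below are CPM implied by the deposited fold change and average. They are not divided by gene length, so they are compared between genotypes and not between genes.

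The lines differed in a large share of the transcriptome: 8092 of 25647 genes passed, or 31.6% of those tested. Of these, 4151 genes (16.2%) were higher in myb30 and 3941 (15.4%) were higher in MYB30-OE, so the directions were close to balanced. Most differences were modest, with a median of 1.57-fold among passing genes, and 73.3% of them were under 2-fold. At least 2-fold differences numbered 943 genes (3.68%) on the myb30 side and 1214 genes (4.73%) on the MYB30-OE side. The median log2 fold change over all tested genes was 0.025, close to 0.

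**Figure D1:**
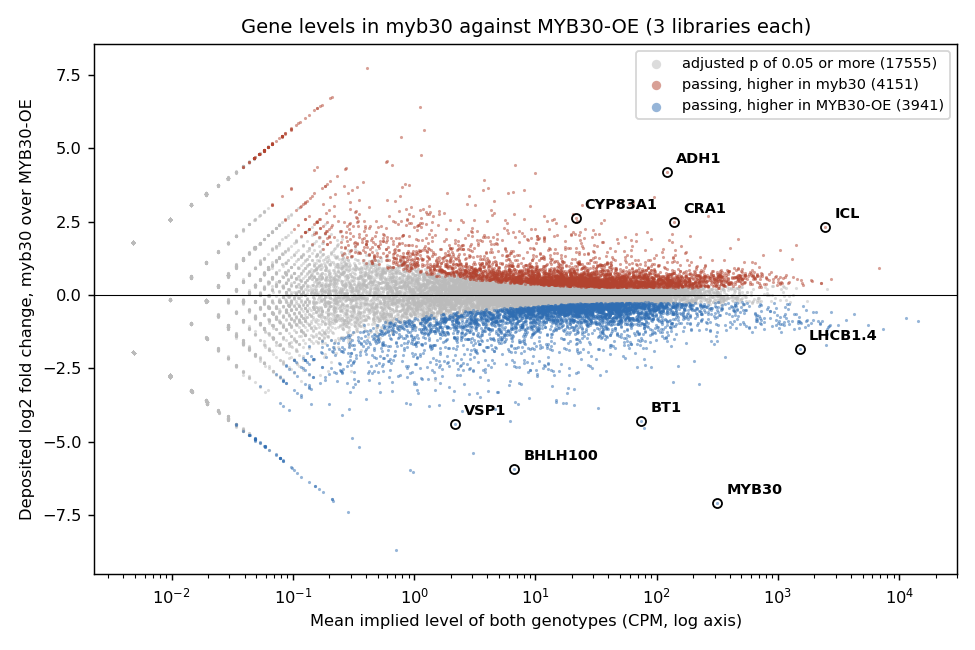
Each point is 1 of 25647 genes, with its implied mean level over both genotypes (CPM, log axis) and the deposited log2 fold change of myb30 over MYB30-OE (3 libraries each). Red marks the 4151 genes that passed and were higher in myb30, blue the 3941 higher in MYB30-OE, and grey the rest; diagonal lines of points at the left are genes with few reads or none in 1 genotype.

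MYB30 itself (AT3G28910, chromosome 3, 10911157 to 10913190, TAIR10) had an implied level of 4.55 CPM in myb30, 32.0 CPM in Col and 627 CPM in MYB30-OE. The difference between the lines was 138-fold, and the deposited p-value is listed as 0. Which line stands on top of each fold change was read from this gene, so it describes the span of the comparison and is no independent check of the labels. About 498 reads were implied for MYB30 in the 3 myb30 libraries, and the tables do not show where in the gene they lie.

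Genes known to work with MYB30 or closely related to it gave a mixed picture, with 2 of 9 measured members higher in myb30, 3 higher in MYB30-OE, MYB30 among them, and a median log2 fold change of -0.14. BES1, the brassinosteroid factor, was 1.67-fold higher in MYB30-OE, and MIEL1, a ubiquitin ligase that targets MYB30, was 1.49-fold higher there. MYB96 and MYB94, relatives that activate wax synthesis genes, were 3.04-fold and 1.43-fold higher in myb30. MYB96 stood at 19.5 CPM in myb30, 9.56 CPM in Col and 6.42 CPM in MYB30-OE, so it was ordered opposite to MYB30. MYB31 (4.49 against 3.77 CPM), MYB60 (8.45 against 7.07 CPM), SIZ1 (64.5 against 75.5 CPM) and PLA2-ALPHA (45.4 against 50.2 CPM) did not pass.

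The 15 largest differences on the myb30 side, taken from passing genes that averaged 1 CPM or more and had reads in both lines, ran from 10.1-fold to 86.0-fold. ADH1, the alcohol dehydrogenase of ethanol fermentation, stood at 229 CPM in myb30, 30.9 CPM in Col and 12.4 CPM in MYB30-OE (18.5-fold, adjusted p = 3.78e-34). EARLI1, a lipid-transfer-type protein of the cell wall, stood at 173 CPM, 76.7 CPM and 17.2 CPM in the same order (10.1-fold, adjusted p = 1.01e-50). Both followed the order of the genotypes, with Col in between. BARS1, a triterpene synthase that makes baruol, was 21.5-fold higher in myb30 (13.0 against 0.601 CPM), FOLB3, a dihydroneopterin aldolase of folate synthesis, was 12.5-fold higher (7.56 against 0.603 CPM), and ADPG1, a polygalacturonase of organ separation, was 10.4-fold higher (5.16 against 0.494 CPM). ADPG1 differs from the others in that its Col level, 4.37 CPM, lay close to that of myb30.

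The remaining rises were mostly genes at low levels that carry only family annotations. AT4G30880, a lipid-transfer-type protein, had about 244 reads in myb30 and about 2.17 in MYB30-OE, with a deposited difference of 86.0-fold. With reads rounded to whole numbers and scaled to library size, the ratio was 108 (exact binomial interval 29.6 to 898, at 95% and for counting error only). AT1G75945 (49.8-fold), the GDSL lipase AT5G08460 (27.2-fold), the peroxidase AT5G19890 (18.0-fold) and the rhodanese-type protein AT2G17850 (15.1-fold) followed. AT3G29970, a B12D protein, was 12.1-fold higher in myb30, AT1G12805 was 11.9-fold higher and AT5G40590, a C1-domain protein, was 11.5-fold higher. In AOP3, a dioxygenase of glucosinolate side-chain modification, and MEE26, a hydroxyproline-rich glycoprotein, the Col level was the lowest of the 3 genotypes. AOP3 stood at 3.43 CPM in myb30, 0.0196 CPM in Col and 0.301 CPM in MYB30-OE, and MEE26 at 11.0, 0.039 and 0.983 CPM. Both lines therefore lay above Col for these genes.

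**Figure D2:**
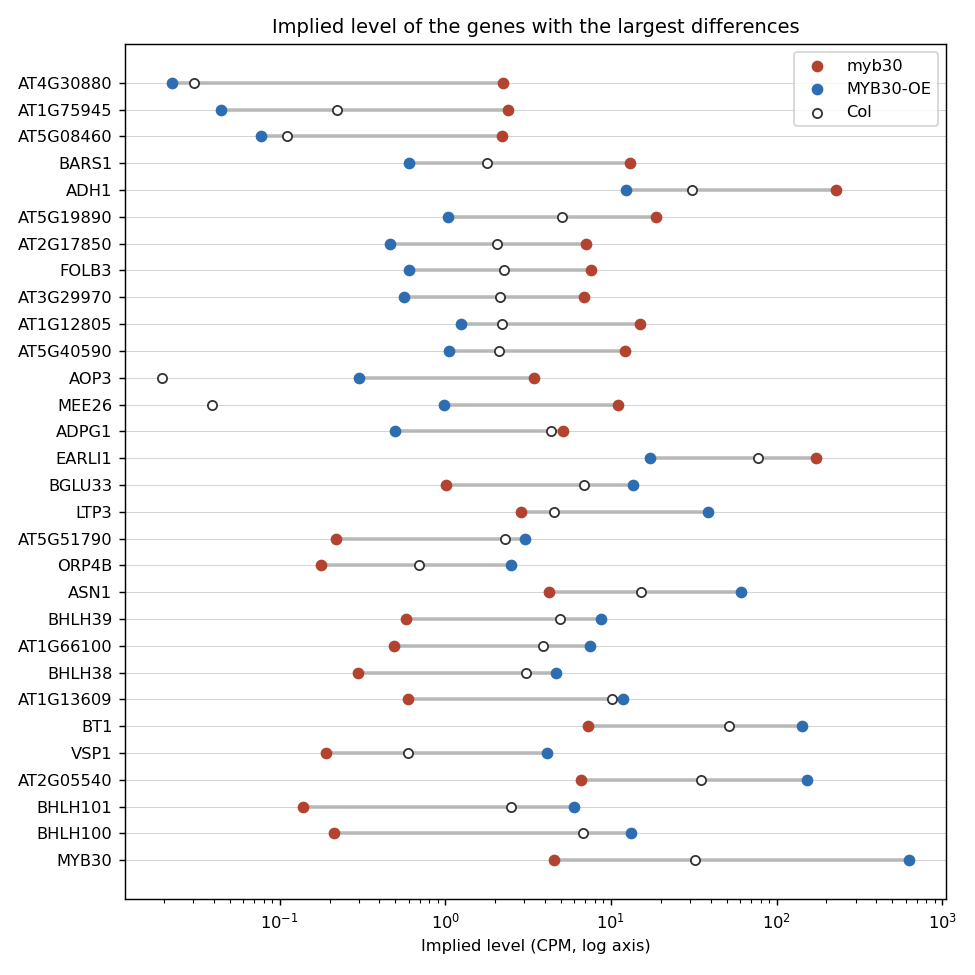
Implied level (CPM, log axis) in myb30 (red), Col (open) and MYB30-OE (blue) for MYB30, the 15 genes with the largest rises and the 14 other genes with the largest falls. Col lies between the lines for most of these genes, and left of both for AOP3 and MEE26.

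The largest differences on the MYB30-OE side, after MYB30 itself, began with the iron-regulatory bHLH factors BHLH100 and BHLH101. They were 61.3-fold and 42.1-fold higher in MYB30-OE, and BHLH38 and BHLH39 were 15.5-fold and 14.8-fold higher. ASN1, an asparagine synthase induced in darkness and low sugar, stood at 4.24 CPM in myb30, 15.1 CPM in Col and 61.1 CPM in MYB30-OE (14.4-fold, adjusted p = 1.32e-89). BT1, a BTB and TAZ domain protein, stood at 7.25, 51.9 and 142 CPM in that order (19.6-fold, adjusted p = 1.13e-126). For both genes Col was well separated from each line. DIN10, a raffinose synthase family gene also known for its induction in the dark, was chosen after its values were seen. It was 4.37-fold higher in MYB30-OE (598 against 137 CPM).

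VSP1, a jasmonate-induced vegetative storage protein, was 21.3-fold higher in MYB30-OE, from 0.191 CPM in myb30 to 4.13 CPM. LTP3, a lipid transfer protein, was 13.5-fold higher (38.6 against 2.86 CPM). The glycine-rich protein AT2G05540 was 23.0-fold higher (152 against 6.60 CPM). Among low-level genes were AT1G13609, a defensin-like protein (19.6-fold), AT1G66100, a thionin (15.2-fold), ORP4B, an oxysterol-binding protein relative (13.7-fold), the bHLH gene AT5G51790 (13.6-fold) and BGLU33, a beta-glucosidase (13.3-fold). The Col level of AT1G13609, 10.2 CPM, was close to that of MYB30-OE, 11.8 CPM, whereas the Col level of LTP3, 4.51 CPM, was close to that of myb30.

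The 10 further genes with the smallest p-values were higher in MYB30-OE in 7 cases and higher in myb30 in 3. Higher in MYB30-OE were AT2G16005 (11.9-fold), AT2G22510 (12.5-fold), GDPD2, a glycerophosphodiester phosphodiesterase (5.51-fold), AT5G46890 (10.2-fold), ORG1 (5.25-fold), AT2G23540, a GDSL lipase (8.58-fold), and TPS-CIN (12.9-fold), a terpene synthase that makes cineole and has a near-identical neighbouring copy, so that reads of the copies may be split. Higher in myb30 were GH9B15, a glycosyl hydrolase (94.3 against 10.1 CPM), and 2 genes of methionine-derived glucosinolate synthesis, CYP83A1 (36.9 against 6.01 CPM) and BCAT4 (35.3 against 5.20 CPM). For GH9B15 and CYP83A1 the Col levels, 105 and 30.6 CPM, were near or above those of myb30, so the gap to MYB30-OE was the wider one.

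Photosynthesis genes were higher in MYB30-OE almost without exception. All 23 measured genes for light-harvesting proteins and the Rubisco small subunit passed and were higher in MYB30-OE, as were all 27 nuclear genes for photosystem and electron transport subunits and 18 of 19 genes for carbon fixation and photorespiration. Their median log2 fold changes were -0.90, -0.89 and -0.97, against 0.025 over all tested genes. The exception, CP12-1, did not pass (538 against 617 CPM). In whole seedlings, fewer cells of a type and less RNA per cell cannot be told apart.

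LHCB1.4, an antenna protein of photosystem II, showed the largest difference of these groups: 656 CPM in myb30, 1590 CPM in Col and 2370 CPM in MYB30-OE (3.62-fold, adjusted p = 2.25e-63). RBCS2B, a Rubisco small subunit, was 2.51-fold, LHCB2.3 2.38-fold and LHCA1, a photosystem I antenna protein, 2.24-fold higher in MYB30-OE. LHCB1 and RBCS copies are near-identical in part, so values of single members are uncertain. Among photosystem subunits, PSAG (2.3-fold), PSAL (2.18-fold), PSBR (2.11-fold) and PSAE-2 (2.03-fold) led, and NPQ4, the photoprotection subunit, differed least (1.33-fold). In carbon metabolism the largest differences were in CP12-2, a regulator of the Calvin cycle (2.64-fold), and in the photorespiration enzymes HPR (2.41-fold), GLDP1 (2.40-fold) and SHM1 (2.13-fold).

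Summed over the 23 light-harvesting and Rubisco genes, the level was 47660 CPM in myb30, 74880 CPM in Col and 90930 CPM in MYB30-OE. Most of the gap between the lines therefore lay between myb30 and Col. The median log2 fold change of this list was -0.66 in myb30 over Col and 0.30 in MYB30-OE over Col. Those comparisons share the Col libraries, so they are set side by side and not treated as separate evidence.

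The promoter of LHCB1.4 shows one of the short motifs that recur in these genes. It is given here as 250 bases before the gene start (chr2:14524506-14524755, plus strand, TAIR10.1 sequence), with the I-box GATAAG, a motif found in many light-regulated promoters, in capitals.
LHCB1.4: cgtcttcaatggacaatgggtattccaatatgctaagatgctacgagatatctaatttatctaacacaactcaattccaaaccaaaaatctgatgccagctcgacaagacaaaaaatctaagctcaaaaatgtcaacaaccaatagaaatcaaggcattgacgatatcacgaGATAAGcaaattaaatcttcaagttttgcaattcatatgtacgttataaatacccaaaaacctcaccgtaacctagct
The I-box was present on either strand in 17 of 27 photosystem promoters (63.0%) and in 11 of 23 light-harvesting and Rubisco promoters (47.8%), against 13.0% of the promoters of all tested genes. A match describes the letters in the window and not a bound site.

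Chlorophyll synthesis genes and chloroplast regulators passed in both directions. Of 14 chlorophyll genes, 4 were higher in MYB30-OE, 1 was higher in myb30 and 9 did not pass, with a median of -0.21. The 5 that passed were a share near the 31.6% of all tested genes. GUN5, a subunit of the magnesium chelatase, was 1.56-fold, CAO 1.53-fold, CRD1 1.47-fold and CHLM 1.39-fold higher in MYB30-OE. PORA, the protochlorophyllide reductase that is abundant in dark-grown seedlings, was 2.13-fold higher in myb30 (20.8 against 9.75 CPM). Of 9 chloroplast development factors, the GATA factors GNC (1.71-fold) and CGA1 (2.09-fold) were higher in myb30 and the sigma factors SIG1 and SIG2 (1.24-fold each) were higher in MYB30-OE. GLK1 (43.8 against 44.5 CPM) and GLK2 (80.5 against 72.1 CPM), activators of photosynthesis genes, did not pass, and the median of these factors was -0.12.

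Between the lines, seed reserve and oil breakdown genes differed in the direction opposite to the photosynthesis genes. Seed storage and oil body genes together reached 698 CPM in the mutant, 17.7 CPM in Col and 147 CPM in the overexpressor. Both lines therefore lay above Col for the storage genes. Seed oil breakdown genes reached 8516, 3312 and 2635 CPM in the same order. The root marker list, by contrast, had 3 of 13 members higher in myb30 and none higher in MYB30-OE, with sums of 381 and 321 CPM, and no listed root marker was at 0 in either line. The part of these groups in the photosynthesis result was not tested.

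Most iron-deficiency genes that passed were higher in MYB30-OE. Of 23 measured members, 13 were higher in MYB30-OE, 5 were higher in myb30 and 5 did not pass. The subgroup of bHLH factors that activate iron uptake was at its lowest implied level in myb30: BHLH100 stood at 0.212 CPM in myb30, 6.76 CPM in Col and 13.2 CPM in MYB30-OE, and BHLH101 at 0.139, 2.48 and 6.0 CPM. BHLH38 stood at 0.296, 3.05 and 4.63 CPM, and BHLH39 at 0.580, 4.93 and 8.65 CPM. In all of these genes the Col level lay between those of the lines.

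Downstream and sensing genes of the same response pointed both ways. IRT1, the main root iron transporter, was 7.20-fold higher in MYB30-OE, BTS, a ubiquitin ligase that restrains the response, 2.44-fold, and OPT3, a transporter of the phloem, 2.0-fold. Further members known only by identifier here, AT1G47395, AT1G47400 and AT2G30766, were 5.54-fold, 5.07-fold and 4.58-fold higher in MYB30-OE. CYP82C4 had about 40.9 reads in MYB30-OE and none in myb30, so it was at least 15.4-fold higher in MYB30-OE against a floor of 3 reads per genotype. In the opposite direction, NAS1, a nicotianamine synthase, was 2.39-fold and MYB10 4.42-fold higher in myb30. FRU, the bHLH partner of the group, did not pass (1.61 against 1.97 CPM), nor did FRO2, the root ferric reductase (2.03 against 1.42 CPM).

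All 4 ferritin genes, which encode iron-storage proteins, were higher in myb30 with a median log2 fold change of 0.63. FER1 stood at 273 CPM in myb30, 144 CPM in Col and 148 CPM in MYB30-OE (1.85-fold), so the departure from Col was on the myb30 side. The median log2 fold change of the iron-deficiency list was -1.29, and it was -0.59 when members without reads in 1 line were held at the 3-read floor. The 250 bases before BHLH100 (chr2:17199321-17199570, minus strand, TAIR10.1 sequence) hold a G-box, CACGTG, merged with the abscisic acid response core ACGTGTC, and these are the capitals below.
BHLH100: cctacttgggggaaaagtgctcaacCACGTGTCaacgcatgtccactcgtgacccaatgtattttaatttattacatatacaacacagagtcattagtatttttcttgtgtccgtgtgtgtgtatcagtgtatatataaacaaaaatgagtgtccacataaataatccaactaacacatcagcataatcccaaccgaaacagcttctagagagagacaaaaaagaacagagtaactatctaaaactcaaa

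Genes for very-long-chain fatty acids and the lipid barriers made from them were higher in MYB30-OE wherever they passed. The counts were 12 of 17 for fatty acid elongation, 7 of 7 for wax formation, 6 of 10 for cutin and 11 of 12 for suberin, with none higher in myb30. The medians were -0.49, -0.60, -0.85 and -1.86 on the log2 scale. Elongation genes are the class MYB30 is known to activate. The suberin list gave the lowest median of the 41 lists.

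In elongation, KCS2 was 4.60-fold higher in MYB30-OE and KCS6, a condensing enzyme for wax precursors, stood at 142 CPM in myb30, 254 CPM in Col and 447 CPM in MYB30-OE (3.16-fold, adjusted p = 4.98e-33). CER2 and CER26, needed for the longest chains, were 2.58-fold and 2.3-fold higher. The core elongase subunits PAS2 (1.37-fold), CER10 (1.36-fold) and KCR1 (1.31-fold) differed less. KCS8, KCS10, KCS12, KCS16 and KCS19 did not pass and ranged from -0.19 to 0.02 on the log2 scale.

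In wax formation, MAH1, a midchain alkane hydroxylase, was 5.78-fold (0.446 against 0.0742 CPM) and CER4, an alcohol-forming reductase, 2.74-fold higher in MYB30-OE. CER5, a transporter, was 1.96-fold and CER3 1.52-fold higher. CER1, of alkane formation, stood at 33.0 CPM in myb30, 23.3 CPM in Col and 46.7 CPM in MYB30-OE, with both lines above Col. In cutin, GPAT6 was 5.28-fold, CYP86A4 2.33-fold and CYP77A6 2.18-fold higher in MYB30-OE. DCR (20.9 against 17.8 CPM) and BDG1 (54.9 against 53.7 CPM) did not pass.

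In suberin, the barrier polymer of the root endodermis and periderm, GPAT5 (5.96-fold), CYP86A1 (5.83-fold), FAR5 (5.71-fold), ABCG6 (5.23-fold) and CYP86B1 (5.03-fold) were higher in MYB30-OE. FAR5 stood at 3.80 CPM in myb30, 11.6 CPM in Col and 21.7 CPM in MYB30-OE, and CYP86A1 at 3.92, 5.27 and 22.9 CPM. MYB41, a regulator of suberin genes, was 2.05-fold higher. ABCG2 had about 15.1 reads in MYB30-OE and none in myb30, which is at least 5.70-fold. Of the 13 root markers given above, 3 were higher in myb30 and 10 did not pass, among them CASP1, which marks the endodermis (40.7 against 37.8 CPM). The part of root tissue share in the suberin result was not tested.

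Anthocyanin and flavonol genes ran in the opposite direction. All 6 late anthocyanin genes were higher in myb30, with a median of 1.79 on the log2 scale, and so were 9 of 14 general phenylpropanoid and flavonol genes, with a median of 0.65. The late genes stood close together, from 3.02-fold to 3.79-fold. DFR, dihydroflavonol reductase, stood at 55.9 CPM in myb30, 25.2 CPM in Col and 15.8 CPM in MYB30-OE (3.54-fold, adjusted p = 7.05e-30). LDOX was 3.53-fold, UGT79B1 3.40-fold and 5MAT, an acyltransferase, 3.79-fold higher in myb30.

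Earlier in the pathway, TT7, the flavonoid hydroxylase, was 3.13-fold, UGT78D1 2.31-fold and CHS, chalcone synthase, 2.27-fold higher in myb30 (CHS 495 against 219 CPM). PAL4, a phenylalanine ammonia lyase, was the 1 member higher in MYB30-OE (2.52-fold). Of 12 regulators, 7 were higher in myb30 and 1 in MYB30-OE, with a median of 0.90 (0.81 with the member without reads in 1 line at the floor). Among them were PAP1 (7.39-fold), PAP2 (6.45-fold), MYB11 (5.60-fold) and MYB111 (2.83-fold). MYBL2, which represses anthocyanin genes, was 3.53-fold higher in MYB30-OE. The DFR promoter (chr5:17165919-17166168, minus strand) holds paired G-boxes around the AC element ACCAACC, which is read on the opposite strand, and a W-box core TTGACT at its start.
DFR: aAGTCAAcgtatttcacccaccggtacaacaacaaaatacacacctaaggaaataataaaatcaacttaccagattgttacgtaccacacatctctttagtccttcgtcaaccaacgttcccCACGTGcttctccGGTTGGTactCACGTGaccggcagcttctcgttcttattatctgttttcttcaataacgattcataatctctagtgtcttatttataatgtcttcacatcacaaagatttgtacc

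Methionine-derived glucosinolate genes were higher in myb30 in 15 of 17 cases, and none was higher in MYB30-OE. The median was 1.68 on the log2 scale and 1.39 with members without reads held at the floor. BCAT4, the first step of chain elongation, was 6.77-fold, CYP83A1 6.15-fold, MAM1 4.48-fold, IMD1 3.71-fold and MAM3 3.21-fold higher in myb30. CYP79F1, the entry enzyme for short chains, had about 37.8 reads in myb30 and none in MYB30-OE, at least 11.2-fold. MYB28, their main activator, was 1.42-fold higher. The list's median was -0.04 in myb30 over Col and -1.50 in MYB30-OE over Col, so the difference lay on the MYB30-OE side.

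The CYP83A1 promoter (chr4:7992312-7992561, minus strand) holds the AC element ACCTACC and the MYB site ACCAAAC, both on the opposite strand, and a G-box between them.
CYP83A1: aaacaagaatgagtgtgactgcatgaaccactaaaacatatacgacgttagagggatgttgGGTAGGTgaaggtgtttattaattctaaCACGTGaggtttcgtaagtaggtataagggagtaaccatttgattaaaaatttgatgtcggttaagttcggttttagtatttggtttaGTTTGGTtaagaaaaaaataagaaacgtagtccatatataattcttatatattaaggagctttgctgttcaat
The motif ACCTACC occurred in 1.22% of the promoters of all tested genes, in 3 of 17 of the methionine-derived glucosinolate list and in 5 of 14 of the phenylpropanoid list. Among lists higher in MYB30-OE, it occurred in 2 of 12 suberin and 1 of 7 wax promoters, and in 0 of 17 elongation and 0 of 10 cutin promoters. The motif was thus not particular to lists higher in myb30.

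Tryptophan-derived glucosinolate genes did not follow this division. Of 10 measured members, 3 were higher in MYB30-OE, 1 was higher in myb30 and 6 did not pass, with a median of 0.04. In all, 4 of 10 passed, against 31.6% of all tested genes. CYP81F4 was 2.42-fold, MYB51 1.51-fold and CYP79B3 1.41-fold higher in MYB30-OE, and CYP83B1 was 1.22-fold higher in myb30. Among 13 genes for the enzymes that break glucosinolates down and for ER bodies, 7 were higher in myb30 and 4 higher in MYB30-OE, with a median of 0.41. ESP, an epithiospecifier, was 3.16-fold, TGG2 2.01-fold and PYK10, the main ER body glucosidase, 1.89-fold higher in myb30. PYK10 had the largest difference in CPM of any gene on the myb30 side, 8930 against 4730 CPM. TGG1, the other myrosinase, was 1.3-fold higher in MYB30-OE.

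Seed reserve genes were higher in myb30 than in MYB30-OE, and higher in both than in Col. All 14 seed storage and oil body genes passed and were higher in myb30, with a median of 2.3 on the log2 scale. The list summed to 698 CPM in myb30, 17.7 CPM in Col and 147 CPM in MYB30-OE. OLEO3 (8.11-fold), OLEO4 (6.75-fold), ATS1 (6.70-fold) and PAP85 (6.45-fold) showed the largest differences. CRA1, a cruciferin, stood at 237, 4.99 and 41.9 CPM in the order myb30, Col and MYB30-OE. OLEO1, an oleosin, had 29.3, 0.910 and 5.78 CPM. Its promoter (chr4:12900180-12900429, plus strand) holds 2 G-boxes that overlap abscisic acid response cores, ACGTGGC and ACGTGTC, with a further ACGTGTC core that overlaps 1 of 2 MYB sites, AACAAAC.
OLEO1: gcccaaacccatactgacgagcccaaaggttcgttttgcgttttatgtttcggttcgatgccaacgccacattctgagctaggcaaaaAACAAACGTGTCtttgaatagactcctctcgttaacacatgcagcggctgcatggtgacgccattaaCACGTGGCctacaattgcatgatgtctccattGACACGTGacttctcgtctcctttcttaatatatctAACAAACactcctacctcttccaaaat
G-boxes occurred in 7 of 14 promoters of the list (50%), against 8.41% of all tested genes. Among lists higher in MYB30-OE, they occurred in 12 of 27 photosystem and 9 of 23 light-harvesting and Rubisco promoters. They occurred in 0 of 17 elongation and 0 of 12 suberin promoters. The G-box was thus not particular to lists higher in myb30.

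Most regulators of seed maturation and enzymes of seed oil use that passed were also higher in myb30. FUS3 was 7.32-fold, ABI4 5.84-fold and ABI3 4.39-fold higher in myb30, whereas DOG1, a dormancy gene, was 2.08-fold higher in MYB30-OE. ICL, isocitrate lyase of the glyoxylate cycle, stood at 4090 CPM in myb30, 1300 CPM in Col and 821 CPM in MYB30-OE (4.98-fold, adjusted p = 2.38e-47), and MLS, malate synthase, at 740, 195 and 199 CPM. MFP2, of beta-oxidation, was 3.06-fold and PCK1, of gluconeogenesis, 2.90-fold higher in myb30. In all, 8 of 10 oil breakdown genes were higher in myb30 and 1 in MYB30-OE, with a median of 1.11. Of 7 maturation regulators, 4 were higher in myb30 and 1 in MYB30-OE. SDP1, a lipase that starts oil breakdown, was 1.31-fold higher in MYB30-OE.

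Late embryogenesis and cold-regulated genes did not go with the storage genes. Of 11 members, 6 were higher in MYB30-OE and 1 in myb30, with a median of -0.56. RD29B was 4.36-fold, EM6 2.81-fold and KIN1 1.62-fold higher in MYB30-OE, while PER1, a seed peroxiredoxin, was 3.46-fold higher in myb30. The median of the seed maturation list was 2.55, and it was 1.12 with LEC1 and LEC2, neither of which had a read in MYB30-OE, held at the floor.

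Jasmonate genes and rapidly induced stress factors that passed were higher in MYB30-OE with 1 exception, while salicylic acid genes passed in both directions. In the jasmonate list 12 of 25 measured members were higher in MYB30-OE and 1, AOC4, was higher in myb30, with a median of -0.52 (-0.51 with the member without reads in 1 line at the floor). VSP1 (21.3-fold), JAZ7, a repressor of the pathway (9.99-fold), LOX4, of jasmonate synthesis (4.11-fold), and CYP94B3, of jasmonate inactivation (3.66-fold), led. Of 18 rapid stress factors 14 were higher in MYB30-OE and none in myb30, with a median of -1.05. WRKY40 stood at 1.44 CPM in myb30, 3.28 CPM in Col and 16.4 CPM in MYB30-OE (11.4-fold), ZAT10 was 3.58-fold and ERF1 3.80-fold higher. CBF1 had a ratio of 10.7 with an exact binomial interval of 2.59 to 94.9.

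In the salicylic acid and immunity list, 4 of 22 were higher in MYB30-OE, 3 were higher in myb30 and 15 did not pass, with a median of -0.21. The 7 that passed were a share near the 31.6% of all tested genes. WRKY33 (3.69-fold), CBP60G (2.3-fold), WRKY70 (2.23-fold) and NPR3 (1.84-fold) were higher in MYB30-OE. The 3 genes higher in myb30 were at low levels: PR1 stood at 0.515 against 0.0225 CPM, a ratio of 24.8 (6.56 to 210), PR2 was at least 4.05-fold higher, and FMO1 was 5.73-fold higher (0.832 against 0.142 CPM). EDS1, PAD4, ICS1 and NPR1 did not pass.

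Of 14 reactive oxygen genes, 7 were higher in myb30 and 1, the NADPH oxidase RBOHF (1.24-fold), was higher in MYB30-OE, with a median of 0.24. The copper superoxide dismutases CSD1 (2.73-fold) and CSD2 (1.91-fold) led, followed by the catalase CAT3 (1.44-fold) and APX1, an ascorbate peroxidase (1.36-fold). Among 10 heat shock genes, HSFA7A (4.27-fold), HSP17.6II (3.62-fold) and DREB2A (2.53-fold) were higher in MYB30-OE and HSP18.2 (2.42-fold) was higher in myb30. The other 6 did not pass, and the median was -0.65. The share that passed, 4 of 10, compares with 31.6% of all tested genes.

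Hypoxia and fermentation genes that passed were higher in myb30. Of 9 hypoxia genes 7 were higher there and none in MYB30-OE, with a median of 0.96. HB1, a haemoglobin, stood at 114 CPM in myb30, 38.7 CPM in Col and 12.9 CPM in MYB30-OE (8.78-fold), SUS4, a sucrose synthase, was 5.71-fold and PDC1, pyruvate decarboxylase, 5.49-fold higher. PCO1 and PCO2, the oxygen-sensing cysteine oxidases, were 1.94-fold and 1.58-fold higher. HRA1 and LBD41, which are also induced by low oxygen, did not pass and lay at 16 against 21.5 CPM and 30.7 against 40.5 CPM.

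Nitrate and phosphate genes gave calls in both directions. For nitrate, NRT2.1, a transporter (3.49-fold), and the nitrate reductases NIA2 (1.98-fold) and NIA1 (1.78-fold) were higher in MYB30-OE, and NIR1 was 1.25-fold higher in myb30, with 2 of 6 not passing and a median of -0.33. For phosphate starvation 5 of 11 were higher in MYB30-OE and 1 in myb30, with a median of -0.37. MGD2, a galactolipid synthase, was 3.01-fold, SPX1, a phosphate sensor, 2.52-fold and SQD2, of sulfolipid synthesis, 1.81-fold higher in MYB30-OE. The exception, RNS1, a ribonuclease, was 1.62-fold higher in myb30.

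**Figure D3:**
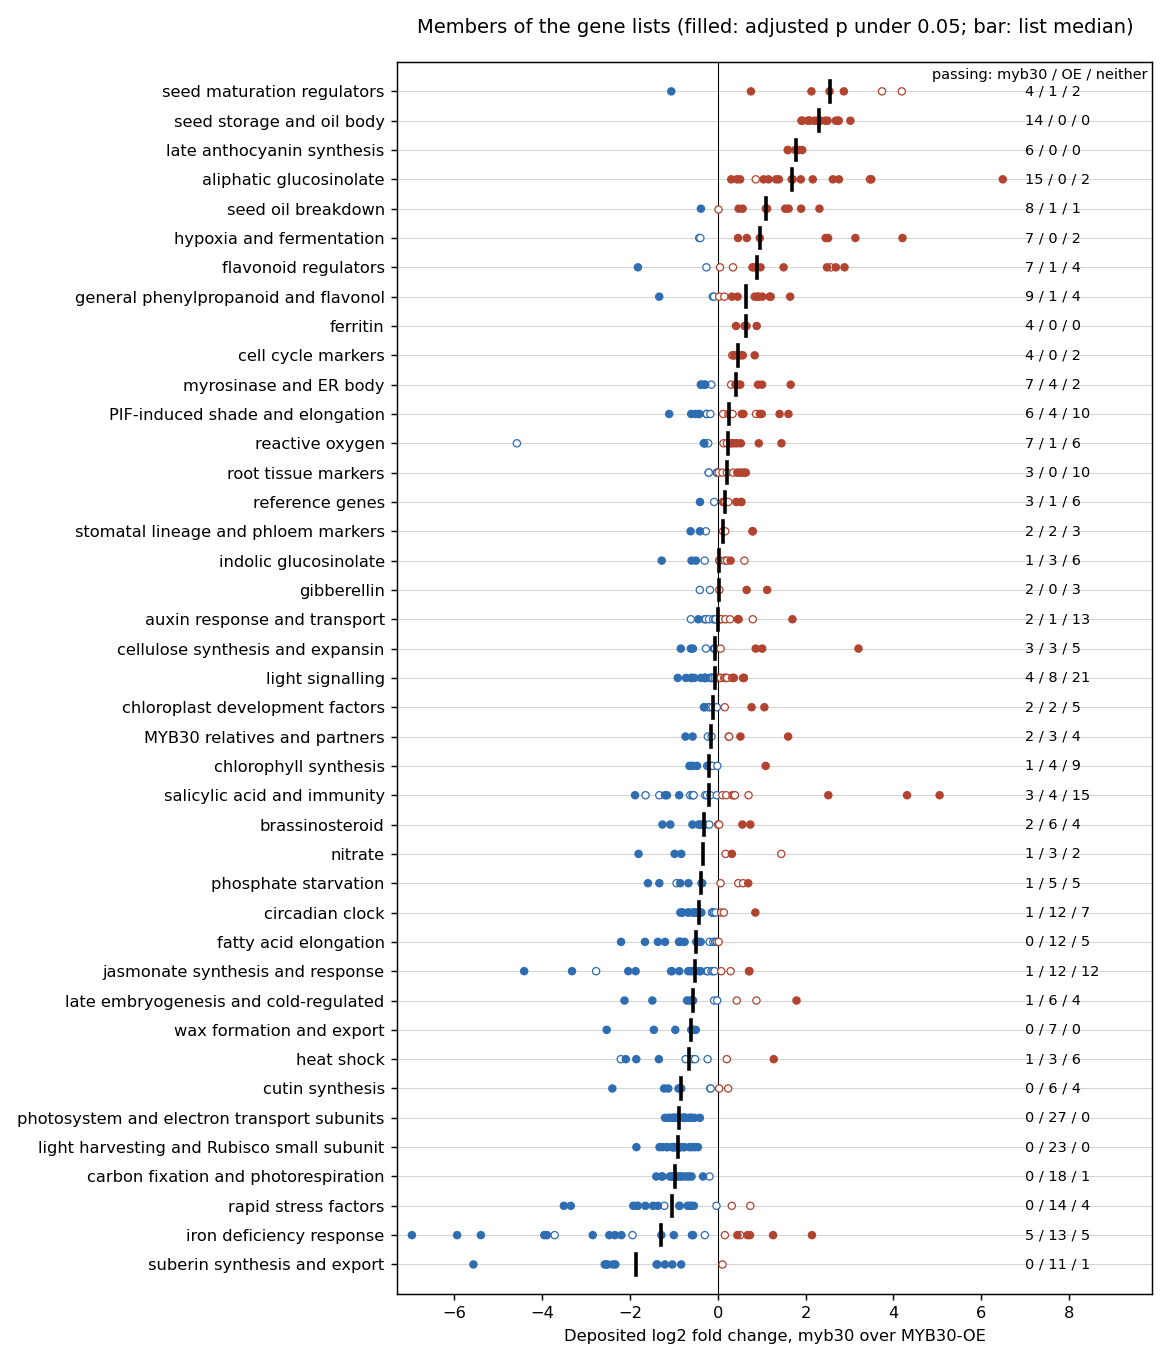
Deposited log2 fold change of myb30 over MYB30-OE for each measured member of the 41 gene lists (MYB30 itself is left out). Filled points passed, open points did not, black bars are list medians and the numbers give members higher in myb30, higher in MYB30-OE and neither; all members of the 3 photosynthesis lists lie left of 0, and all members of the seed storage, late anthocyanin and methionine-derived glucosinolate lists lie right of it. The 12 members without a read in 1 line are drawn at their fitted value, which is no bound.

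Light signalling genes passed in 12 of 33 cases, a share near the 31.6% of all tested genes. Of these, 8 were higher in MYB30-OE and 4 were higher in myb30, and the median of the list was -0.07. PIF4, a growth-promoting bHLH factor, was 1.88-fold, the blue-light receptor CRY1 1.65-fold and PIF7 1.52-fold higher in MYB30-OE. BBX25 was 1.51-fold, HYH 1.51-fold and HY5, a promoter of light-grown development, 1.28-fold higher in myb30. PHYA (271 against 244 CPM), PHYB (72.8 against 69.4 CPM) and COP1 (45.3 against 40.5 CPM) did not pass. Targets of PIF factors were divided, with 6 of 20 higher in myb30, among them PRE1 (3.05-fold), PRE5 (2.65-fold) and YUC8, of auxin synthesis (2.0-fold), and 4 higher in MYB30-OE, led by HAT1 (2.15-fold), with a median of 0.26.

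Clock genes were lower in myb30 than in MYB30-OE in most cases that passed: 12 of 20 were higher in MYB30-OE and 1 in myb30, with a median of -0.42. LNK2 (1.81-fold), PRR7 (1.77-fold) and RVE1 (1.74-fold) led, and PRR9 was 1.81-fold higher in myb30. The core morning genes CCA1 (47.7 against 49.4 CPM) and LHY (80.2 against 87.7 CPM) did not pass. The time of day of harvest is not given in the labels.

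Growth hormone genes were divided. In the brassinosteroid list 6 of 12 were higher in MYB30-OE, with BEE3 2.39-fold, BR6OX1, of synthesis, 2.12-fold and the receptor BRI1 1.49-fold higher, and 2 were higher in myb30, with BR6OX2 1.67-fold higher. The median of that list was -0.31. Only 3 of 16 auxin genes passed: GH3.3, an auxin-conjugating enzyme (3.25-fold), and IAA1 (1.37-fold) were higher in myb30 and PIN4, an efflux carrier (1.36-fold), was higher in MYB30-OE. The gibberellin synthesis genes GA3OX1 (2.18-fold) and GA20OX1 (1.58-fold) were higher in myb30 and the other 3 genes of that list did not pass. The medians were 0.00 for auxin and 0.04 for gibberellin. EXPA2, an expansin, was 9.22-fold and EXPA1 2.02-fold higher in myb30. The secondary wall cellulose synthases CESA4 (1.79-fold), CESA8 (1.53-fold) and CESA7 (1.48-fold) were higher in MYB30-OE, while the primary wall genes CESA1, CESA3 and CESA6 did not pass. Of these 11 wall genes 3 were higher in each line, with a median of -0.07.

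Marker lists of cell types, the cell cycle and reference genes were described for the make-up of the samples. Of 13 root markers, 10 did not pass and 3 were higher in myb30, a share below the 31.6% of all tested genes. The 3 were the root hair genes EXPA7 (1.56-fold), PRP3 (1.51-fold) and LRX1 (1.36-fold), and the median of the list was 0.21. Among stomatal lineage and phloem genes SPCH (1.74-fold) and EPF2 (1.73-fold) were higher in myb30, and SUC2, of companion cells (1.54-fold), and FAMA (1.33-fold) were higher in MYB30-OE, with 3 of 7 not passing and a median of 0.12. Of 6 cell cycle genes, CYCB1;1 (1.79-fold), PCNA1 (1.48-fold), MCM3 (1.44-fold) and MCM2 (1.3-fold) were higher in myb30, with a median of 0.45. Of 10 reference genes, 3 were higher in myb30 and 1, ACT2 (1.33-fold), was higher in MYB30-OE, with a median of 0.16. Thus 4 of 10 passed, against 31.6% of all tested genes.

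**Figure D4:**
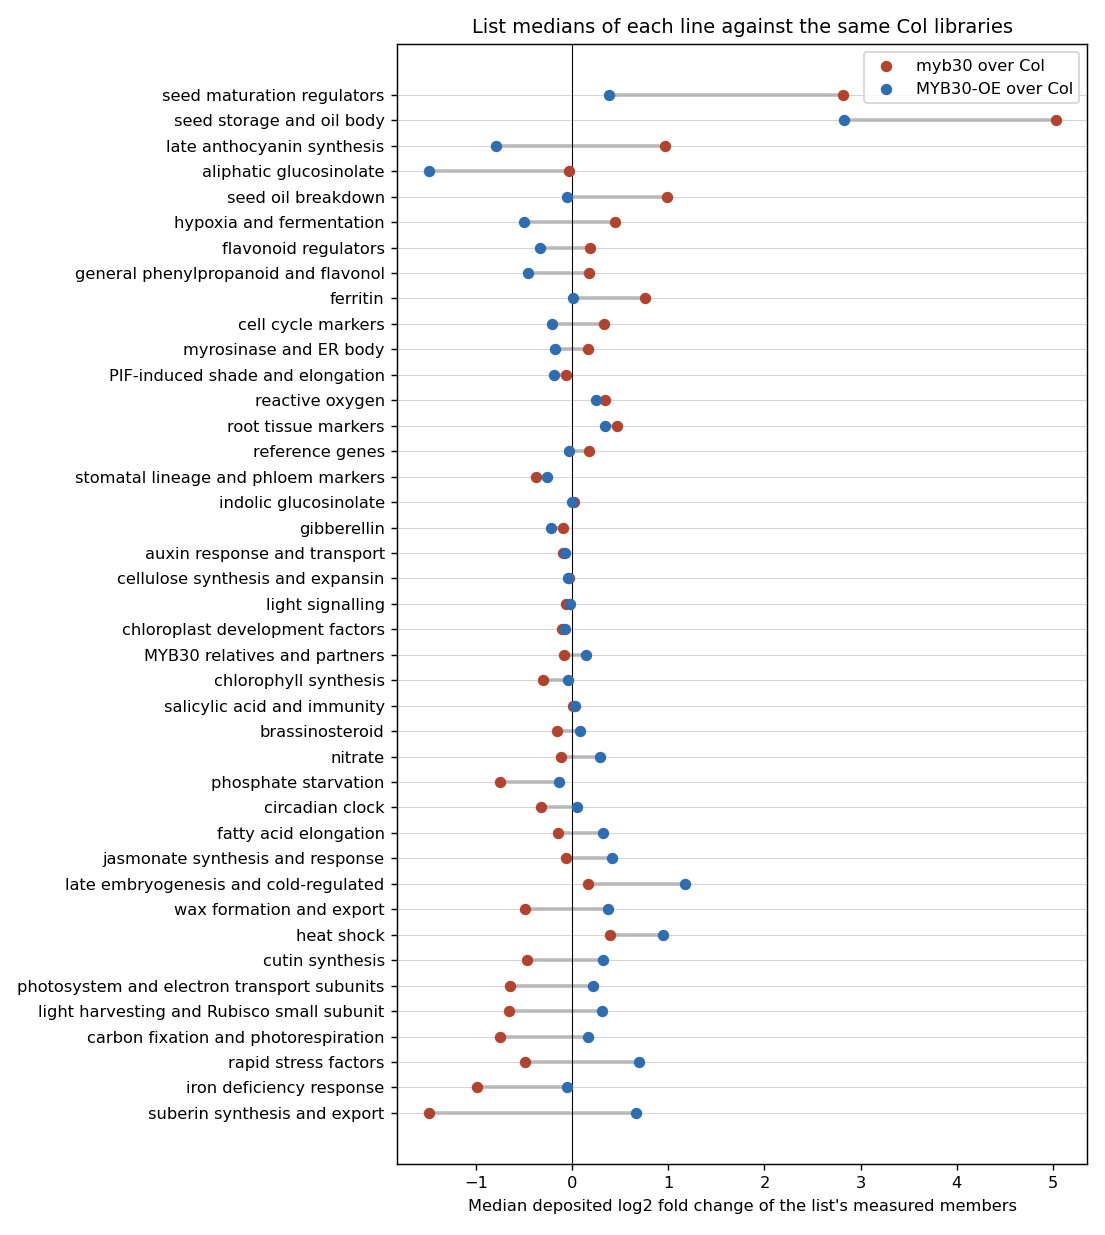
Median deposited log2 fold change of each list in myb30 over Col (red) and MYB30-OE over Col (blue). Both sets use the same Col libraries and are shown side by side; over all tested genes the medians were 0.015 and 0.003.

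The share of genes that passed was larger at higher levels. It was 3.23% below 0.1 CPM, 21.5% from 0.1 to 1, 32.2% from 1 to 10, 39.9% from 10 to 100 and 57.2% from 100 to 1000 CPM. Above 1000 CPM, 85 of 99 genes passed (85.9%), and 58 of them were higher in MYB30-OE against 27 in myb30. From 100 to 1000 CPM the order was turned, with 643 genes higher in myb30 and 388 higher in MYB30-OE. The most abundant genes on the MYB30-OE side were mainly photosynthetic: RBCS1A alone stood at 10000 CPM in myb30, 16300 CPM in Col and 18700 CPM in MYB30-OE.

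**Figure D5:**
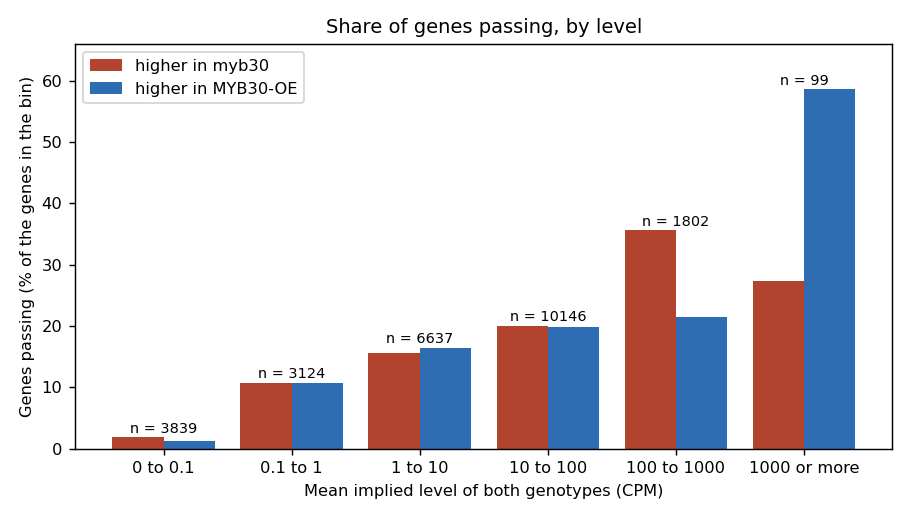
Share of genes that passed and were higher in myb30 (red) or MYB30-OE (blue), by mean implied level (CPM). The number of genes in each bin is printed above the bars; the share rises with level, and above 1000 CPM it was 58.6% for MYB30-OE and 27.3% for myb30.

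Among the 23965 tested genes with a model in the deposited annotation, the share that passed was similar between chromosomes, at 32.8% to 33.8%. Tested genes without such a model are left out of these shares. Their spread along a chromosome was not examined. Protein-coding genes passed in 33.4% of cases, and long non-coding RNA genes, at a lower level, in 5.85%. Of 118 small nucleolar RNA genes, 24 passed (20.3%), all of them higher in myb30. Over all tested genes 31.6% passed and 16.2% were higher in myb30. The median level of this class was low, at 0.143 CPM. Exon lengths cover only genes with a model in the deposited annotation. Passing genes higher in myb30 had a median exon length of 1309 bases and those higher in MYB30-OE 1560 bases. Genes at 1 CPM or more that did not pass had a median of 1640 bases.

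Transposable elements were counted in a separate table. Of 7695 elements with a read, 326 passed (4.24%), with 163 in each direction. Of the elements that also differed at least 2-fold, 70 were higher in myb30 and 112 in MYB30-OE. Their reads were few, about 291181 per library, and their CPM are scaled to that total, so levels are not comparable with those of genes.

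Short motifs known from MYB and light-regulated promoters were counted in the 250 bases before each of 23964 tested genes, on both strands. Over all of them the AC element ACCTACC was present in 1.22%, its variant ACCAACC in 3.11% and the variant ACCTAAC in 2.57%. The MYB site ACCAAAC was present in 9.29% and the related AACAAAC in 11.1%, while the G-box CACGTG was present in 8.41% and the I-box GATAAG in 13.0%. The abscisic acid cores ACGTGGC and ACGTGTC, which can overlap a G-box, were present in 4.72% and 4.79%, and the W-box cores TTGACC and TTGACT in 12.7% and 19.1%. Genes at least 2-fold higher in MYB30-OE had an I-box in 18.8% and a G-box in 11.8% of cases, and those at least 2-fold higher in myb30 in 13.0% and 8.81%. For ACCTACC the shares were 1.69% and 2.15%, and for ACCAAAC 8.56% and 8.70%. These shares describe the windows, and nothing follows from them about which factor binds.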

How the data were processed

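Whole seedlings of 3 genotypes were profiled with 3 libraries each (9 in all), and 6 of these libraries enter the comparison. TopHat, Cufflinks and Cuffdiff are listed, with TAIR10 as the build, per the submitters' processing notes. No source used here states the strand setting. Per the file headers, the authors deposited 3 columns per feature: the log2 fold change, the average level as log2 CPM, and a p-value, which carries no adjustment. The deposited column names are those that edgeR writes, though no source used here says that the authors ran it. The line codes in the table names were matched to genotypes by the labels. The authors' deposited annotation gave exon positions, exon lengths and gene starts.

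The Benjamini-Hochberg adjustment over the 25647 genes with a read was added here, with a threshold of 0.05. Genes without reads were recognised by the column minimum. CPM and reads per genotype were derived assuming 2 reads added behind the average and 0.125 behind the fold change, the defaults of that tool, so they are approximations (Col levels derived from either table against Col differed by a median ratio of 1.02). A genotype without reads was held at a floor of 3 reads. Ratios on 1 to 3 reads were taken from reads rounded to whole numbers and scaled to library size, not from the deposited fold change. They have exact 95% binomial intervals, which cover counting error only. Precision grows with library size, about 34441996 reads on average.

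The 41 lists, 564 entries of which 556 were measured, and the members were chosen with earlier results of these data known. RefSeq names matched 549 entries, 14 are known by identifier and 1 is not in the table. Genes named are MYB30, the 15 largest rises and falls at a mean of 1 CPM or more with a read in the lower line, the 10 next smallest p-values and the 4 largest passing members per list; others were chosen after their values were seen. The deposited annotation was matched to the TAIR10.1 sequence, in which 99.96% of 35176 coding transcripts start with ATG. The arithmetic of the adjustment and of the level steps was checked on simulated data. Those data were built with the same assumed added reads, so whether the assumption holds for the deposited values was not tested. Python 3.11.15, pandas 2.3.3, numpy 2.4.6, scipy 1.17.1 and matplotlib 3.10.9 were used. Alternatives were a threshold of 0.01, Bonferroni adjustment, a 2-fold minimum, centring on the median, a minimum of 1 CPM, keeping genes without reads, annotated genes only and a pseudocount of 1.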

Additional observations from a re-analysis of the deposited data

How the results depend on the processing

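The 8092 passing genes became 2551 under Bonferroni adjustment and 2157 with a 2-fold minimum (1125 and 943 higher in myb30, 1426 and 1214 higher in MYB30-OE). For transposable elements the 326 passing became 138 and 182 (72 and 70 higher in myb30, 66 and 112 higher in MYB30-OE). An adjusted p of 0.01, a minimum of 1 CPM, no filter and annotated genes only left 5925 to 8084 genes. Centring does not alter the p-values, so it cannot change these counts. MYB30 ranged from -7.131 to -6.823 on the log2 scale over centring, a pseudocount of 1 and, added after seeing the data, the difference of the tables against Col (-7.105). Of 192 other named genes, 18 did not pass at 0.01. Signs of single genes were not tested by the other settings. A pseudocount of 1 cannot change the sign of a gene. Centring shifts each value by only 0.025 on the log2 scale, less than the smallest difference of a passing gene (1.18-fold). Of 82 list counts, by list and direction, 11 moved by over 1.5 times at 0.01 and 1 with a minimum of 1 CPM. Of 41 list medians, 10 moved by 0.1 or more under the pseudocount and 8 with a minimum of 1 CPM. The median of the auxin list changed sign under a pseudocount, a minimum of 1 CPM and centring. No leave-one-out fit and no values of single libraries were possible. No paired analysis was possible because the tables hold no columns of single libraries. Depth limits genes under 0.1 CPM, of which 3.23% passed.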

Other observations

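Product families of the reference annotation, described here after their values were seen, showed groups that the lists did not cover. Among 319 families with at least 8 genes at 1 CPM or more, mannose-binding lectins had the highest median (0.89 on the log2 scale), with 14 of 17 higher in myb30 and 2 higher in MYB30-OE. Growth-regulating factors, which promote cell proliferation in leaves, followed, with 8 of 9 higher in myb30 and a median of 0.88. GRF7 stood at 3.05 CPM in myb30, 0.699 CPM in Col and 0.642 CPM in MYB30-OE, and GRF5 at 8.32, 3.53 and 2.81 CPM. GRF3 did not pass (24.7 against 26.6 CPM).

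Several ribosomal protein families were also mostly higher in myb30: 8 of 8 acidic 60S proteins (median 0.65), 8 of 8 zinc-binding ribosomal proteins (median 0.65) and 10 of 11 genes of the L7Ae/L30e family (median 0.68). Other ribosomal families were less uniform. In the L1p/L10e family 6 of 8 were higher in myb30 and 1 in MYB30-OE, and in the S5 family 7 of 8 and 1. In the L18p/L5e family 4 of 8 were higher in myb30 and 4 did not pass. SWEET sugar transporters, annotated as Nodulin MtN3 proteins, had the lowest median (-1.02), with 6 of 8 higher in MYB30-OE and none in myb30. SWEET11, which exports sucrose from leaf cells, stood at 48.8 CPM in myb30, 83.7 CPM in Col and 127 CPM in MYB30-OE. Immune receptors of the TIR-NBS-LRR class were higher in MYB30-OE in 22 of 44 cases and in myb30 in 2, with a median of -0.56.

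ELIP1, a light-stress protein of the chloroplast chosen after its values were seen, ran against the light-harvesting genes at 246 CPM in myb30, 67.5 CPM in Col and 39.8 CPM in MYB30-OE (6.18-fold, adjusted p = 2.25e-63).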
